A study of Mus musculus with 44 samples.

Results

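Integrins are the adhesion receptors with which a cell holds on to its matrix, laminins and nidogens are the proteins that build the basement membrane sheet around muscle fibres, vessels and nerves, and syndecans are membrane proteoglycans that bind matrix and growth factors through heparan sulfate. Genes of these 4 families were followed across 44 single cells. They were taken from the deposited table by symbol: 36 of 12707 gene symbols began with Itga, Itgb, Lama, Lamb, Lamc, Nid or Sdc and met the rule, which leaves out the Itgb1bp and Sdcbp genes and Itgbl1. Of these, 33 belong to the families, with 13 integrin alpha chains, 6 integrin beta chains, 8 laminin chains, 2 nidogens and 4 syndecans. The other 3 (Itgb3bp, Sdccag3 and Sdccag8) share only the letters of the name and were kept out of the counts. All members of the rule had 1 row each.

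All 44 cells belong to 1 group. They were Tomato-positive cells of the hindlimb muscles of adult C57BL/6 mice of the genotype Prrx1-CreERT;Tomato, given 2 mg of tamoxifen a day for 3 days. Prrx1 is a transcription factor gene of limb mesenchyme, and in this line tamoxifen frees a Cre recombinase that switches on the red Tomato reporter in cells where the Prrx1 driver is active. Cells were digested free with collagenase and dispase, sorted, and picked singly under a microscope. No unlabelled or untreated cells and no animals are named in the labels, so the cells count as 1 sample: values are given over cells, with no test between groups and no p-value, and shares carry an exact Clopper-Pearson 95% interval that covers counting error only.

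Levels are the deposited log2 values, read as log2(FPKM + 1), where FPKM counts sequenced fragments relative to transcript length and to the size of the library. A gene was called present in a cell at a log2 value of 5 or more, which is an FPKM of 31, and the count at a log2 value of 1 (FPKM 1) is given beside it. The higher threshold was used because low values were shared between particular libraries: 172 of 946 pairs of cells were linked in this way, in 6 sets of 7 mutually linked cells with 2 cells in no set. A linked cell carried a median of 0.278% of a strong gene's FPKM. Every cell summed to between 579623 and 579912 FPKM, so sequencing depth is unknown, and a gene under the threshold is not shown to be off.

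The cells were checked against markers. All 10 measured fibroblast or fibro-adipogenic progenitor markers were present in at least 22 cells, and each cell held at least 3 of them. No cell held 3 or more markers of endothelial cells, macrophages, satellite cells or glia. Of 8 endothelial markers only Tek was present in any cell, in 14 cells, and of 7 macrophage markers only Cd68, in 1 cell. Cells 30 and 36 held 9 and 10 of 10 pericyte or smooth muscle (mural) markers and 6 other cells held 3 or 4. At least 3 of 11 myofibre markers were present in 7 cells, and at least 3 of 8 tenocyte markers in 8 cells.

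Basement membranes form when laminin trimers, each of 1 alpha, 1 beta and 1 gamma chain, polymerise on the cell surface and are joined by nidogen to a collagen IV network. In skeletal muscle much of this sheet lies on the myofibre, and fibroblasts between the fibres are known to contribute components to it. Integrins are dimers of 1 alpha and 1 beta chain, the alpha chain deciding much of the ligand bound and Itgb1 serving as beta chain for most of the alpha chains measured here.

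Among the 33 genes, laminin chains and nidogens reached at least 22 cells more often than integrin chains, of which 5 are chains of blood cells. The partner lists described further on were mixed. In these, 2 of 13 other basement membrane genes and 6 of 18 further integrin ligands reached 22 cells. So did 5 of 11 integrin-associated membrane proteins and 4 of 29 adhesion plaque genes. The most frequent members were Nid1 in 42 cells, Lama2 in 33, Sdc2 in 31, Lamb2 in 30, Lamc1 in 27 and Itga11 in 23. These 6 of 33 genes (18.2%) were present in at least 22 cells, against 5.25% of all 12707 genes. At a log2 value of 1 the count was 13 of 33 (39.4%) against 25.4%. Counting a gene only where it also stood over 5 times the signal its linked cells could carry, 11 of 33 reached 22 cells, against 10.7% of all genes. At least 11 cells held 12 of 33 (36.4%), against 14.4% of all genes. By family 3 of 8 laminin chains, 1 of 2 nidogens, 1 of 4 syndecans and 1 of 19 integrin chains reached 22 cells. The median member was present in 3 cells, against 2 for all genes: the median laminin chain was present in 19 cells and the median integrin chain in 1. Of the 33 genes, 9 were present in no cell, beside 2791 of all 12707 genes (78% were present in at least 1). Of those 9, 5 reached a log2 value of 1 in no cell, beside 1355 of all 12707 genes (89.3% reached it in at least 1).

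**Figure D1:**
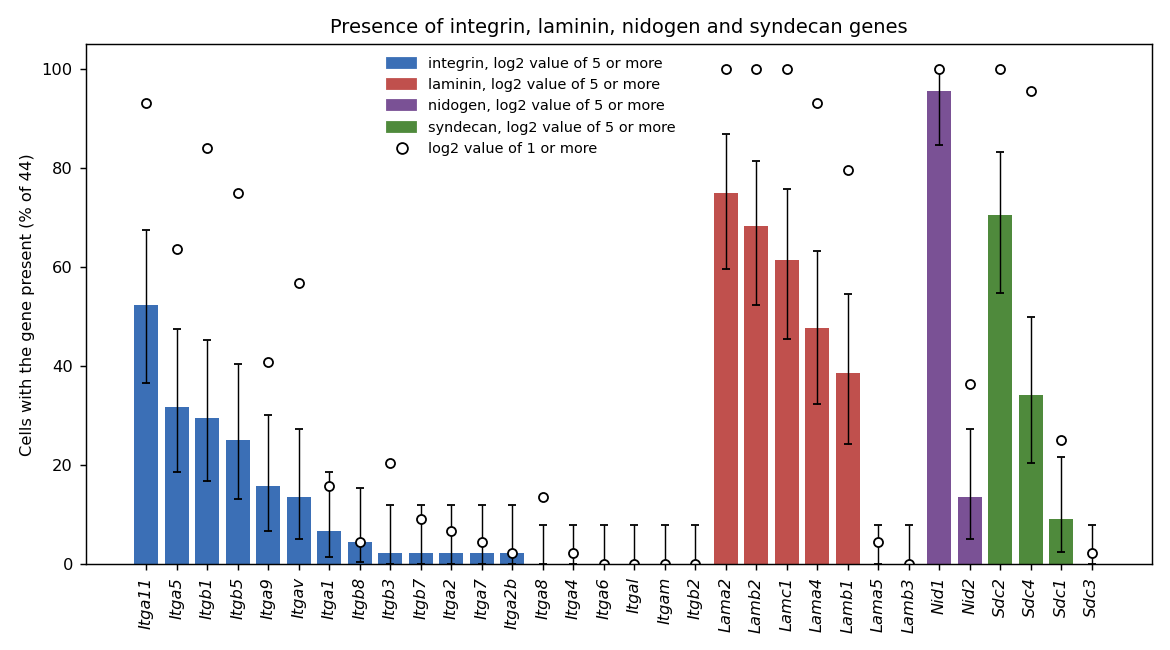
Share of the 44 cells in which each family member named in the text was present, grouped by family. Bars give the share at a log2 value of 5 or more with exact 95% intervals, and open circles the share at a log2 value of 1 or more. Nid1 is the tallest bar at 95.5% (exact interval 84.5 to 99.4). Among integrins only the bar of Itga11 passes 50%, while the open circles of Itgb1, Itgb5, Itga5 and Itgav do so as well.

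Cells held a median of 7 members, with a range of 3 to 13. Cell 11 held the most, with 4 integrin chains, 5 laminin chains, 2 nidogens and 2 syndecans, and cell 43 the fewest.

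The promoters of 2 matrix genes are shown because Nid1 was the most general member and Lama2 the most frequent laminin chain, and because their correlations with the Dpp4-type fibroblast genes described further on had opposite signs. Each holds 250 bases before the RefSeq transcription start and 50 after it, in GRCm38.p6, written 5′ to 3′ on the gene's strand. Nid1 lies at chr13:13437352-13437651 on the plus strand and Lama2 at chr10:27616893-27617192 on the minus strand. The Lama2 window lies wholly inside the GENCODE span of the gene, which ends at 27619758, so the RefSeq start used is not the outermost GENCODE start. Which start these cells use was not tested. Capitals mark matches on either strand to the GC box GGGCGG or the CCAAT box.
Nid1: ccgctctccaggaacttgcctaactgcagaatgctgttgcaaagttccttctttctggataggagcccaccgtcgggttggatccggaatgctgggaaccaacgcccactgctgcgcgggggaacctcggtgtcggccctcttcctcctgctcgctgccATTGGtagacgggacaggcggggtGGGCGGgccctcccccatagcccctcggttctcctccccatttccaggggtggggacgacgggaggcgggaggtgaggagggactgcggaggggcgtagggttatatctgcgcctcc
Lama2: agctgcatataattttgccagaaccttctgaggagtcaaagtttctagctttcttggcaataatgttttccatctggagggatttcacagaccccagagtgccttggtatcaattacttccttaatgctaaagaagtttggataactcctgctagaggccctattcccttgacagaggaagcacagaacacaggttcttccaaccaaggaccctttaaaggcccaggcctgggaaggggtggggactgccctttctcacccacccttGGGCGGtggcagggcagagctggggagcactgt
The Nid1 window held 1 GC box and 1 CCAAT match, the latter on the opposite strand, and the Lama2 window held 1 GC box and no CCAAT match. Of 32851 RefSeq promoters of this length, 35.7% held the GC box and 37.4% the CCAAT box. The Nid1 window was 64.7% G or C and that of Lama2 50.3%, against a median of 52.7% over all promoters. A match is a description of the letters and no measurement of the promoter was made.

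Nid1 (ENSMUSG00000005397, chromosome 13, 13437551 to 13512269, plus strand, GRCm38) encodes nidogen-1, the linker that joins laminin to collagen IV. Its log2 value ran from 4.07 in cell 36 over a median of 8.41 to 11.44 in cell 13. Only cells 36 and 40 were under the threshold, and Nid1 was the steadiest of the 12 members present in at least 11 cells, with an SD of 1.49 over cells. The SDs of those 12 members reached 2.79, and the median SD of the 1834 genes present in at least 11 cells was 2.64. No comparison was made with genes of a level similar to that of Nid1, which had the highest median of the 12. Its paralogue Nid2 was present in 6 cells and had a median of 0.65, with a highest value of 8.03 in cell 11. Nid1 stood above Nid2 in 43 of 44 cells, by a median of 7.59 log2 units. Each of the other members stood below Nid1 in rank of the median, and the next, Sdc2, was below it in 31 of 44 cells, by a median of 1.71 with quartiles of -0.17 and 3.85.

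Of the laminin alpha chains, Lama2 was the most frequent. Lama2 (chromosome 10, 26980036 to 27619758, minus strand) encodes the chain of the main laminin of the adult muscle fibre sheet, and its loss causes a congenital muscular dystrophy. Its log2 value ran from 1.10 in cell 33 over a median of 6.75 to 10.19 in cell 8, and it reached a log2 value of 1 in all 44 cells. In 37 of them it also stood over 5 times the signal that linked cells could carry. Lama4, the chain found around vessels and nerves, ran from 0.85 in cell 8 over a median of 4.85 to 8.38 in cell 31 and was present in 21 cells. Cell 8 thus held the highest Lama2 value and the lowest Lama4 value. Both chains were present in 16 cells, Lama2 alone in 17, Lama4 alone in 5 and neither in 6. With shares of this size 15.8 cells with both would be expected if the 2 were unrelated.

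Lama5, the alpha chain of many mature epithelial and vascular basement membranes, was present in no cell and had its highest value of 2.80 in cell 30. The alpha chains Lama1 and Lama3 are not analysed here.

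The beta chains were also unequal. Lamb2 ran from 2.14 in cell 18 over a median of 6.25 to 10.05 in cell 30 and was present in 30 cells, against 17 for Lamb1, which had a median of 3.88 and a highest value of 8.03 in cell 26. Lamb2 stood above Lamb1 in 32 of 44 cells. Lamb2 was present without Lamb1 in 21 cells, Lamb1 without Lamb2 in 8, both in 9 and neither in 6. Lamb3, a chain of the epithelial laminin of skin, reached a log2 value of 1 in no cell, which allows a share of up to 8.04%.

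Lamc1, the gamma chain of most laminins, ran from 1.32 in cell 42 over a median of 5.58 to 8.96 in cell 18 and was present in 27 cells.

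At least 1 alpha, 1 beta and 1 gamma chain were present together in 22 of 44 cells (50%, exact interval 34.6 to 65.4). At a log2 value of 1 this held for all 44 cells, and for 32 where chains also had to stand over 5 times the linked signal. Of the 22 cells without a full set, 17 lacked a gamma chain, 6 an alpha chain and 6 a beta chain, and 12 lacked the gamma chain alone. The set of Lama2, Lamb2 and Lamc1 was complete in 14 cells, that of Lama4, Lamb2 and Lamc1 in 11, that of Lama2, Lamb1 and Lamc1 in 10 and that of Lama4, Lamb1 and Lamc1 in 9. From the shares of their chains 13.8, 8.79, 7.82 and 4.98 cells would be expected. These are counts of transcripts in the same cell, and the trimers themselves were not measured.

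**Figure D2:**
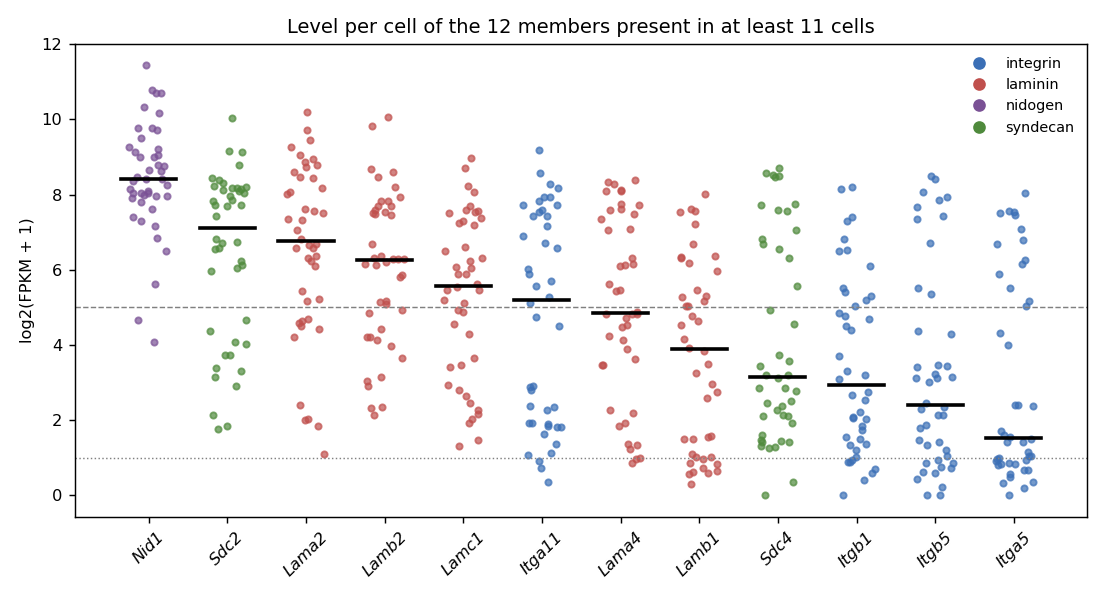
Level of the 12 members present in at least 11 cells, as log2(FPKM + 1), with 1 point per cell (44 cells) and the median as a bar. The dashed and dotted lines mark log2 values of 5 and 1. Nid1 lies at 4.07 to 11.44, while Itga11, Itga5, Itgb1, Itgb5, Lama4, Lamb1 and Sdc4 spread from under 1 to over 8.

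The integrin with the widest presence was Itga11, the alpha chain of a receptor for fibrillar collagen found on fibroblasts. Itga11 (chromosome 9, 62677826 to 62783982, plus strand) ran from 0.36 in cell 1 over a median of 5.19 to 9.18 in cell 35. It was present in 23 cells (52.3%, 36.7 to 67.5), and in these its median was 7.44. The other measured collagen receptor chains were rare. Itga1 was present in cells 36, 40 and 30 and Itga2 in cell 17, at 7.03.

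Itgb1, the beta chain with which Itga11 and most other alpha chains pair, was present in 13 cells (29.5%, 16.8 to 45.2). Its values ran from 0 in 1 cell over a median of 2.92 to 8.21 in cell 7, and 37 cells reached a log2 value of 1. A partner alpha chain was present in 34 cells, together with Itgb1 in 10 of them (22.7% of the 44 cells, 11.5 to 37.8) and without it in 24. At a log2 value of 1 the count with both was 37 and that without Itgb1 was 7. Itga11 and Itgb1 were present together in 4 cells with 6.80 expected from their shares. Itga11 stood above Itgb1 in 29 of 44 cells.

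Among the receptors for fibronectin and vitronectin, Itga5, the alpha chain of the main fibronectin receptor, was present in 14 cells. Its values ran from close to 0 in cell 44 over a median of 1.52 to 8.05 in cell 35. Itgb5, which pairs with Itgav to bind vitronectin, was present in 11 cells with a median of 2.40 and a highest value of 8.48 in cell 2. Itgav itself was present in 6 cells with a median of 1.36, but had the highest single value of any integrin chain, 10.61 in cell 17. Itgav and Itgb5 were present together in 2 cells. Itgb1, another beta partner of Itgav, was also present together with it in 2 cells. Itgb8, which with Itgav can release TGF-beta from its latent form, was present in 2 cells, and Itgb3, of the platelet and osteoclast receptors, in 1. Itga8 was present in no cell, with a highest value of 3.94.

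Itga9, a receptor chain for tenascin and VCAM1, was present in 7 cells with a highest value of 7.48 in cell 39, and its relative Itga4 in none. Of 4 listed laminin receptor chains of the integrin family only 2 were measured. Itga6 reached a log2 value of 1 in no cell and Itga7, the receptor chain of muscle fibres, was present in 1. Of the 5 measured integrin chains of blood cells, from 9 listed, Itgal, Itgam and Itgb2 reached a log2 value of 1 in no cell. Itga2b was present in cell 15 at 5.89 and reached a log2 value of 1 in no other. Itgb7 was present in cell 14 at 6.16 and stood at 4.52 in cell 3, 1.70 in cell 29 and 1.24 in cell 17. In the same cells 6 of 7 macrophage markers were under the threshold throughout.

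Sdc2, the syndecan of mesenchymal cells, ran from 1.75 in cell 12 over a median of 7.12 to 10.03 in cell 27 and was present in 31 cells (70.5%, 54.8 to 83.2). Sdc4, which acts with integrins at focal adhesions, ran from 0 in 1 cell over a median of 3.15 to 8.72 in cell 16 and was present in 15. Sdc2 was above Sdc4 in 33 of 44 cells. Both were present in 9 cells with 10.6 expected, Sdc2 without Sdc4 in 22 and Sdc4 without Sdc2 in 6. Sdc1, the syndecan of epithelia and plasma cells, was present in 4 cells, and Sdc3, best known from neurons and satellite cells, reached 2.59 in cell 28 and the threshold in none.

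The order of the 12 medians was Nid1, Sdc2, Lama2, Lamb2, Lamc1, Itga11, Lama4, Lamb1, Sdc4, Itgb1, Itgb5 and Itga5. Apart from Nid1 over Sdc2, neighbours in that order differed by a median within cells of -0.40 to 0.72 log2 units, and the higher one stood above the lower in only 20 to 28 of 44 cells. Their quartiles spanned 0 in every case, also for Nid1 over Sdc2, so most single steps in the order lie inside the spread between cells.

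**Figure D3:**
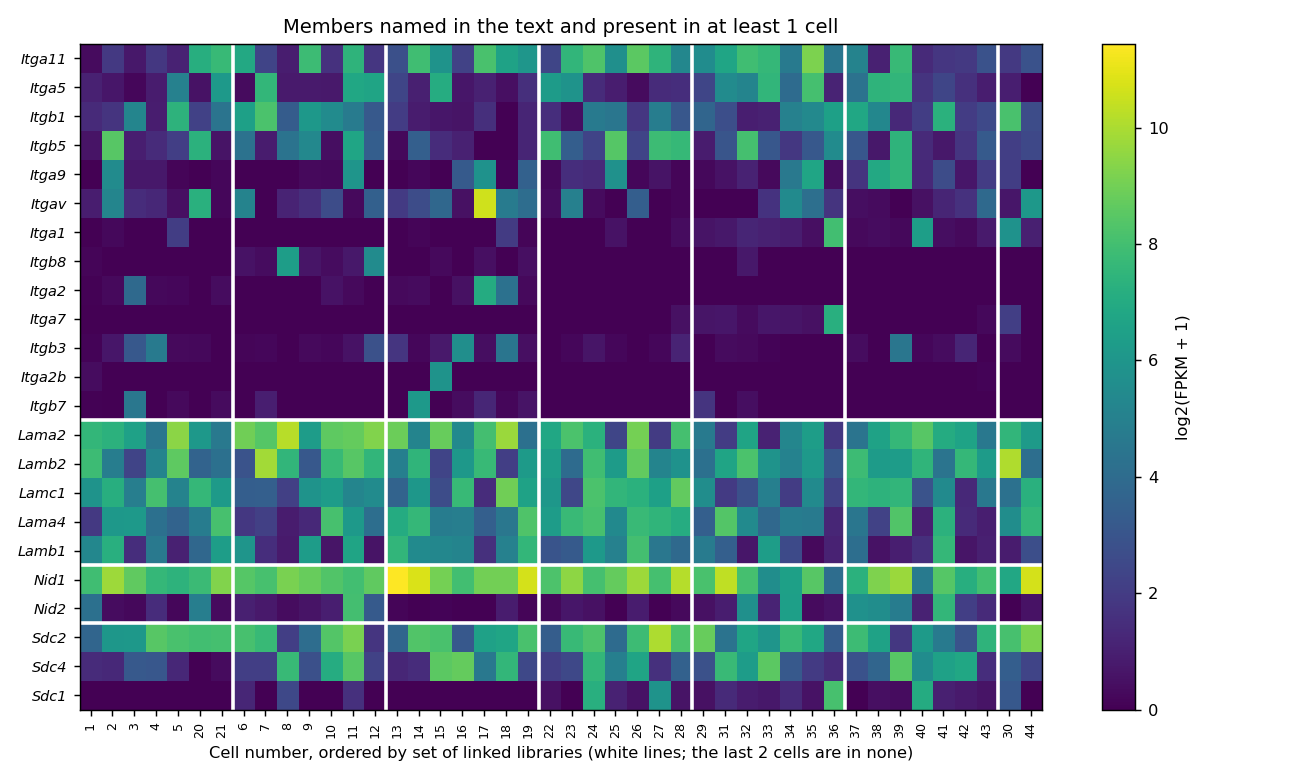
Levels of the members named in the text that were present in at least 1 cell, as log2(FPKM + 1) in colour, with cells ordered by set of linked libraries (white vertical lines) and genes by family (white horizontal lines). Nid1 is bright in nearly every cell, while Itga1, Itga7 and Sdc1 are dark except in single cells such as 36.

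Some members followed the sets of linked libraries more than most genes did. Differences between the 6 sets made up 33% of the variance of Lama2, 29% for Nid1 and 27.4% for Lamc1, with values under 5 set to 5. The median over the 1834 genes present in at least 11 cells was 11.8%, with an upper quartile of 17.3%. Lama2 was present in 7 of 7 cells of the set of cells 6 to 12 and in 3 of 7 of the set of cells 29 and 31 to 36. Lama4 was present in 7 of 7 cells of the set of cells 22 to 28 and in 2 or 3 of 7 of every other set. Itgb1 was present in 0 of 7 cells both in the set of cells 13 to 19 and in that of cells 22 to 28. Whether the sets differ in the cells they hold or in how libraries were made cannot be told apart.

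Which members were high in the same cells was described by correlations over the 44 cells, with values under 5 set to 5 and no test. The points share linked libraries, so each value is followed by the correlation after subtracting the mean of each set, over 42 cells. Most of the 66 pairs of the 12 members were weakly related, with a median Spearman rho of 0.03. The highest was Lama4 with Nid1, at a rho of 0.56 and a Pearson r of 0.58, and a rho of 0.53 within sets. Lama4 with Lamb1 was about as high within sets, at a rho of 0.52, but stood at 0.25 over all 44 cells. Over all cells the next highest were Lamb1 with Nid1 at 0.30 (0.32 within sets), Itga11 with Lamb1 at 0.29 (0.28), Itga11 with Lama4 at 0.29 (0.26) and Itga11 with Nid1 at 0.28 (0.20). The lowest were Itgb1 with Nid1 at -0.31 (-0.12 within sets), Itgb1 with Sdc4 at -0.27 (-0.36) and Itgb1 with Itga11 at -0.26 (-0.01).

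The same members differed in how they went with markers of fibroblast subsets. The mean of 9 Dpp4-type genes, which mark fibroblasts of the Pi16 kind, had a rho of 0.49 with Lamc1 (0.29 within sets), 0.48 with Nid1 (0.40) and 0.43 with Lama4 (0.36). With Lama2 it was -0.34 (-0.45 within sets). The mean of the 10 general fibroblast markers had the same rho of 0.49 with Lamc1 (0.36 within sets). With Nid1 the general markers had a rho of 0.31 (0.29 within sets). The mean of 9 Cxcl14-type genes had a rho of -0.48 with Nid1 (-0.23 within sets). Both lists were chosen with results of these data known. Itga11 had a rho of 0.35 with the Dpp4-type genes (0.26 within sets) and -0.31 with the Cxcl14-type genes (-0.23). Lamb2 had 0.38 with the 8 tenocyte markers (0.28 within sets), and Sdc2 had 0.37 with the general fibroblast markers (0.26). For Lamb1 with the general fibroblast markers it was 0.30 (0.06). For Lamc1 with the 10 mural markers it was -0.32 (-0.12), and for Itgb1 with the 4 glial markers 0.30 (0.29). Glial markers were present only in cells 7, 16 and 41, with 1 in each, so the glial value rests on these cells. Itgb1 stood at 8.21, 0.58 and 7.30 in them. Lamc1 had a rho of -0.51 with the mean of 11 myofibre genes (-0.40 within sets) and Itgb1 one of 0.32 (0.31). The summed level of those myofibre genes ranged from 1.29 to 6882 FPKM, and its part in the Lamc1 and Itgb1 values was not tested.

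**Figure D4:**
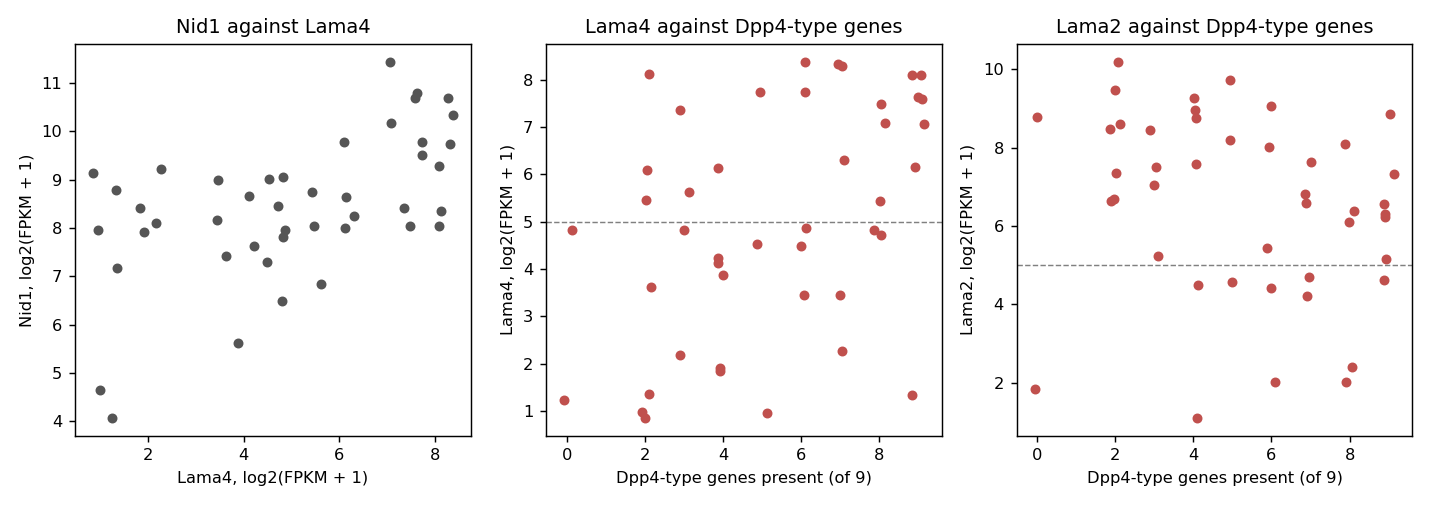
Left, Nid1 against Lama4; middle and right, Lama4 and Lama2 against the number of 9 Dpp4-type genes present in the cell. Levels are log2(FPKM + 1), each point is 1 of 44 cells, points are shifted slightly sideways in the middle and right, and dashed lines mark a log2 value of 5. Nid1 and Lama4 rise together, with a rho of 0.52 for the values as drawn and 0.56 with values under 5 set to 5. With the mean of the Dpp4-type genes, rather than the count drawn, rho was 0.43 for Lama4 and -0.34 for Lama2.

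The rare chains Itga1 and Itga7 were highest in cell 36, which held 10 of 10 mural markers and 4 of 10 fibroblast markers. Itga1, a collagen receptor chain common in smooth muscle, stood at 7.99 there, at 6.42 in cell 40 and at 5.85 in cell 30, against a median of 0.07 in the 42 cells other than 30 and 36. Itga7 stood at 7.21 in cell 36, at 2.13 in cell 30 and at no more than 0.70 elsewhere. Cells 30 and 36 were not linked to each other. Itgb1 stood at 8.15 in cell 30 and at 6.51 in cell 36, the 2nd and 7th highest values of the 44 cells.

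The 2 cells differed in their matrix genes. Cell 36 held none of the laminin or nidogen genes at the threshold, with the lowest Nid1 value of all cells and 1.85 for Lama2, while its Sdc1 value of 8.13 was the highest. Cell 30 held 9 of 10 fibroblast markers as well, and had the highest Lamb2 value of all cells, 10.05, with 7.52 for Lama2 and 6.84 for Nid1. The summed level of the 10 mural markers was 30679 FPKM in cell 36 and 6512 in cell 30, against a median of 81.3 and a highest value of 2567 in the others. Cell 40, the other cell with Itga1 and with Nid1 under the threshold, held 6 of 8 tenocyte markers and 2 mural ones. These are single cells with no replicate.

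**Figure D5:**
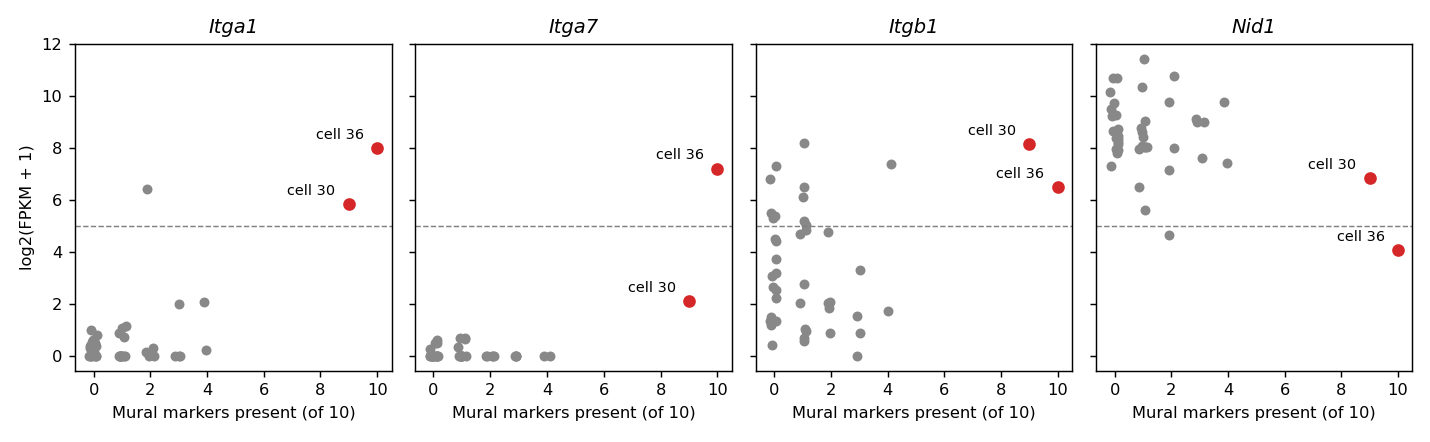
Levels of Itga1, Itga7, Itgb1 and Nid1, as log2(FPKM + 1), against the number of 10 mural markers present in each of 44 cells, with cells 30 and 36 in red and a dashed line at a log2 value of 5. Itga7 is at 0.70 or less outside the 2 red cells, and Nid1 is lowest in cell 36.

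Genes that work with these families were taken from 7 lists holding 106 measured genes, of which 20 (18.9%) were present in at least 22 cells, beside the 5.25% of all genes. Of 13 other basement membrane genes, 2 reached 22 cells: Smoc2 with 32 cells and the collagen IV chain Col4a1 with 28. Its partner chain Col4a2 was present in 21, the heparan sulfate proteoglycan perlecan (Hspg2) in 17, and Npnt and Ntn4 in none. Of 9 genes of the dystroglycan complex and other laminin receptors outside the integrins, 1 reached 22 cells: the laminin-binding ribosomal protein Rpsa, present in 44 cells. Dystroglycan (Dag1), the laminin receptor of the dystrophin complex, was present in 14, as was the sarcoglycan Sgce, with utrophin (Utrn) in 10, Bcam in 2 and Sgcd in none.

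Inside the cell, 4 of 29 adhesion plaque genes reached 22 cells. These were Tns2 with 29 cells, the integrin activator kindlin-2 (Fermt2) with 28, integrin-linked kinase (Ilk) with 26 and Actn4 with 25. The blood cell kindlin Fermt3 and Parvb were present in none. Of 18 further integrin ligands, 6 reached 22 cells, led by Nov with 33 and Fn1, Fbn1 and Cyr61 with 29 each, while Spp1 and Tgfb1 were present in none. Fibronectin (Fn1) had a median log2 value of 7.22, and its receptor chain Itga5 one of 1.52.

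Of 11 integrin-associated membrane proteins, 5 reached 22 cells. Among them Cd63 was present in 41 cells, Cd81 in 39, Cd47 in 37 and Cd9 in 36, and Cd82 and Plaur in 1 each. None of 18 genes for making and editing heparan sulfate reached 22 cells. The editing sulfatases Sulf1 and Sulf2 were present in 18 and 15 cells, Glce in 6, and B3galt6 and B4galt7 in none. Of the 8 glypicans and syndecan-binding proteins, Gpc3 was present in 26 cells, the syndecan-binding adaptor syntenin (Sdcbp) in 22, Tiam1 in 4 and Gpc1 in none.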

How the data were processed

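Single-cell RNA libraries of 44 Tomato-positive cells were made with Nextera XT, per the labels' protocols. What the authors deposited is a single table of FPKM on a log2 scale, with 12745 rows. GRCm38, TopHat2 and Cufflinks are given in the submitters' processing notes, without versions. Base 2 with a pseudocount of 1 was inferred from the values, since no source used here names it. All cells had nearly the same sorted values, so levels are closer to ranks within a cell than to amounts of RNA, and depth is unknown. No p-value or SD between samples could be had.

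A symbol with several rows was represented by its highest mean, and 18 symbols turned into dates were looked up again by gene ID. Libraries were linked where their Spearman correlation, taken on alternate rows, passed an Otsu threshold of 0.540, and carried signal was estimated on 377 strong genes of the other rows. The steps were tested on simulated data with 6 sets of 7 cells. With a simulated carry of 0.3%, 99.7% of pairs were placed correctly and the carry was estimated at 0.298%. With no carry only 48% of pairs were placed correctly, and the estimated carry was 0. An Otsu threshold always splits the pairs, so the link step alone cannot show that links are absent. Alternatives were other thresholds, a threshold set at 5 times what linked cells could carry, leaving out cells or sets, scaling to 1000000, and other floors.

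Named genes are the members, those of the partner lists in the most (4) and fewest (up to 2) cells, and the 5 highest and 3 lowest pairs. A member is counted but not reported here by name. Members and lists were chosen with earlier results of these data known. Python 3.11.15, scipy 1.17.1, scikit-image 0.26.0 and GENCODE M21 coordinates were used.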

Additional observations from a re-analysis of the deposited data

How the results depend on the processing

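The counts moved most with the level at which a gene counts as present. At log2 values of 1, 3 and 7, the members in at least 22 cells numbered 13, 10 and 2 against 6, the partner genes 55, 33 and 9 against 20, and members per cell had medians of 13, 10 and 4 against 7. Full laminin sets were then held by 100%, 75% and 6.82% of cells against 50%, and Itgb1 with a partner alpha chain by 84.1%, 43.2% and 2.27% against 22.7%. At a log2 value of 6 the last 2 were 25% and 9.09%. At FPKM 10 they were 72.7% and 38.6%, with 31 partner genes. With presence set at over 5 times what linked cells could carry, there were 11 members, 33 partner genes and a median of 10 members per cell, with 72.7% and 54.5% of cells. These 5 results moved little, within 1.5 times, the exact interval or 1 SD, when any 1 set of linked libraries was left out. The same held when the 14 cells with at least 3 myofibre or mural markers were left out, or with cells scaled to 1000000. Because all cells had nearly the same sum, that scaling acted only as a lower threshold and is no separate check of normalization. It gave full laminin sets in 61.4% of cells and Itgb1 with a partner alpha chain in 34.1%. The pairs of members with a rho of 0.3 or more in size numbered 8 with no floor, 6 with a floor of 6, 8 with a pseudocount of 0.1 and no floor, and 4 with set means subtracted (chosen after seeing the data), against 2. The cause of these moves was not tested. No paired analysis was possible because there is 1 group.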

Other observations

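Of the genes matched by name only, Sdccag3 was present in 5 cells, Sdccag8 in 4 and Itgb3bp in 2, with highest log2 values of 7.47, 8.34 and 7.08.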
